A study of Mus musculus with 2 samples.

Results

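The 58 genes described here carry the symbols of enzymes that make and break down cyclic AMP, the kinase that it activates and proteins that hold that kinase in place. The symbols also take in genes of other function, such as Pde4dip, so the sums by family below are sums by symbol. They were taken from the 31053 genes of the count tables by symbol: Adcy, Pde or Akap followed by a digit, and Prkar or Prkac. This gave 10 adenylyl cyclases, 26 genes with phosphodiesterase symbols and 4 regulatory and 2 catalytic subunits of protein kinase A (PKA). It also gave 16 genes with A-kinase anchoring protein symbols, called anchors below.

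In brown fat, noradrenaline released in the cold acts on beta-adrenergic receptors, whose G protein switches on adenylyl cyclases in the plasma membrane. The cyclic AMP they make binds the regulatory subunits of PKA and frees the catalytic subunits, which phosphorylate lipolytic and nuclear proteins and so drive heat production. Phosphodiesterases hydrolyse cyclic AMP and end the signal, and anchoring proteins bind the regulatory subunits and place the kinase beside its substrates.

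Nuclei came from brown adipose tissue of C57BL/6 mice, an inbred laboratory strain, whose age and sex the labels do not give. The TN library is from animals housed at thermoneutrality, where body heat needs no extra heat production, and the 1cyc library from animals taken 4 days after a transient acute exposure to cold. Each library pools DAPI-sorted nuclei of 5 mice. There is thus 1 library and no replicate per condition, the mouse of a nucleus is not recorded, and a difference between conditions cannot be told apart from one between libraries. No test between conditions was possible and no p-value is given.

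The TN library held 2551 barcodes with 2745808 UMIs (unique molecular identifiers, each 1 captured molecule) and the 1cyc library 4321 barcodes with 2469900 UMIs. Median UMIs per barcode were 800 and 378, and mitochondrially encoded transcripts made up a median of 4.76% and 22.1% of them. Barcodes under 5% mitochondrially encoded UMIs that held at least 3 UMIs of Pparg, Acsl1 and Ppara together were taken as adipocyte nuclei, 1094 in TN (1215236 UMIs) and 935 in 1cyc (1009621 UMIs). All 12 genes of a separate adipocyte list, among them Adipoq, Plin1 and Ucp1, had UMIs in both sums. The gate also took in 80 TN and 37 1cyc barcodes that held more UMIs of another cell type's list than of the gate genes, and these carried 14.4% and 4.60% of the summed UMIs. Haemoglobin and Alas2 transcripts made up 3.64% of the TN sum and 0.464% of the 1cyc sum, and 0.0373% and 0.0251% once those barcodes were left out. Ratios of the measured members between the libraries, over all adipocyte nuclei, are therefore given with and without them. The 2 libraries shared 6 barcode sequences, 1 of them under the mitochondrial limit. Levels are UMIs scaled to a sum of 1e6 (CPM), and values in parentheses after a level, ratio or share are 95% intervals that cover counting error only.

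The promoters of 4 members are shown, of which Prkar2b and Akap1 stood out among the members below. Pde4a had the only half-site of a cyclic AMP response element (CRE) among 5 matched members. These 5 had the highest ratios of 1cyc over TN among matched members with at least 100 UMIs. Prkar1a held the only full element. The CRE is the sequence to which the PKA target CREB binds. Each run is the 250 bases before a RefSeq transcription start on GRCm38.p6 (mm10), read 5′ to 3′ on the gene's strand. Capitals mark CRE half-sites (TGACG), the full CRE (TGACGTCA), GC boxes (GGGCGG) and CCAAT boxes, on either strand. The Prkar2b run is chr12:32061278-32061527 (minus strand), that of Akap1 is chr11:88864587-88864836 (minus), that of Pde4a is chr9:21183851-21184100 (plus) and that of Prkar1a is chr11:109650699-109650948 (plus).
Prkar2b: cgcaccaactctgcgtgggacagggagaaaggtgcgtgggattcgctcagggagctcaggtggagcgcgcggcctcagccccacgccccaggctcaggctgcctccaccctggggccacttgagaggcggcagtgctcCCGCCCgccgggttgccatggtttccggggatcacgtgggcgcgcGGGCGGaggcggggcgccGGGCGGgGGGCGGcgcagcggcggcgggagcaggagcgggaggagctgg
Akap1: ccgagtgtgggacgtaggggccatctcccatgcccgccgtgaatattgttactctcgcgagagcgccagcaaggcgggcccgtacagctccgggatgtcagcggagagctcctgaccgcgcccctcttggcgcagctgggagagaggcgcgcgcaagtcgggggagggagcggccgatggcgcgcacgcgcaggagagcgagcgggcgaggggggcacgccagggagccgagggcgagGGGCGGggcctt
Pde4a: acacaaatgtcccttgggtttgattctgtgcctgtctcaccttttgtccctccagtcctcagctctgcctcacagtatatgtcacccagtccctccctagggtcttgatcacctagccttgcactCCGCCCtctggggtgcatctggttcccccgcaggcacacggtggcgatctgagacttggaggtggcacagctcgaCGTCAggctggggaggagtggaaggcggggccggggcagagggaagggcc
Prkar1a: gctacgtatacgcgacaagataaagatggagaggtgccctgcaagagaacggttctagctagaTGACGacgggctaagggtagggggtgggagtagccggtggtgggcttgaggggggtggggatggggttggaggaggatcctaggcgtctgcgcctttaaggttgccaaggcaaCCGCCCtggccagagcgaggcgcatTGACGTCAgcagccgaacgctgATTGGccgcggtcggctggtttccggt

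The Prkar2b run held 4 GC boxes and no CRE half-site, and the Akap1 run held 1 GC box, 12 bases before the start. In Pde4a the half-site lay 50 bases before the start, and in Prkar1a the full CRE lay 49 bases before it. RefSeq promoters were matched for 47 of the 58 members and for 20 of the 24 with at least 100 UMIs. A half-site was present in 12 of the 47 members (25.5%), against 19.8% of 27025 genes with a promoter in the same table. The full CRE was present in 1 of the 47, against 1.77% of genes. GC boxes were present in 61.7% of matched members and 35.4% of genes, and CCAAT boxes in 55.3% and 37.5%. In each of these shares a gene counted when any of its promoters held the letters. The 27025 genes had 32851 promoters, while some members had several, among them Prkar1a with at least 6. Members and genes were not compared at equal numbers of promoters, so these shares are not read as a trait of the members. Full elements also count as half-sites, and a match is a match of letters only.

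In adipocyte nuclei, 24 of the 58 members reached 100 UMIs over both sums: 3 cyclases, 10 phosphodiesterase-symbol genes, 1 regulatory subunit, both catalytic subunits and 8 anchors. Of these 24, 3 were at least 1.5-fold higher in 1cyc (12.5%, against 8.33% of the 3711 genes measured) and 0 were at least 1.5-fold lower (5.44% of genes). The 3 were Akap1, Pde1c and Adcy6. The ratio was over 1 for 20 members and under 1 for 4, against 2251 and 1460 of the 3711 genes measured. The median log2 ratio was 0.21, against 0.08 for all genes measured. With the barcodes dominated by another cell type's list left out, 0 of 24 reached 1.5-fold in either direction (6.64% higher and 4.14% lower among 3433 genes), and the medians were 0.12 and 0.03. For 11 members the ratio was over 1 in these values and in each of 16 alternatives, none of which took the barcodes over the mitochondrial limit alone. These were Adcy6, Pde1c, Pde4a, Pde4d, Pde4dip, Pde7b, Prkar2b, Akap1, Akap7, Akap8 and Akap9. The 16 alternatives drew on largely the same nuclei of the same 2 libraries. The share of all genes over 1 in all of them was not computed.

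**Figure D1:**
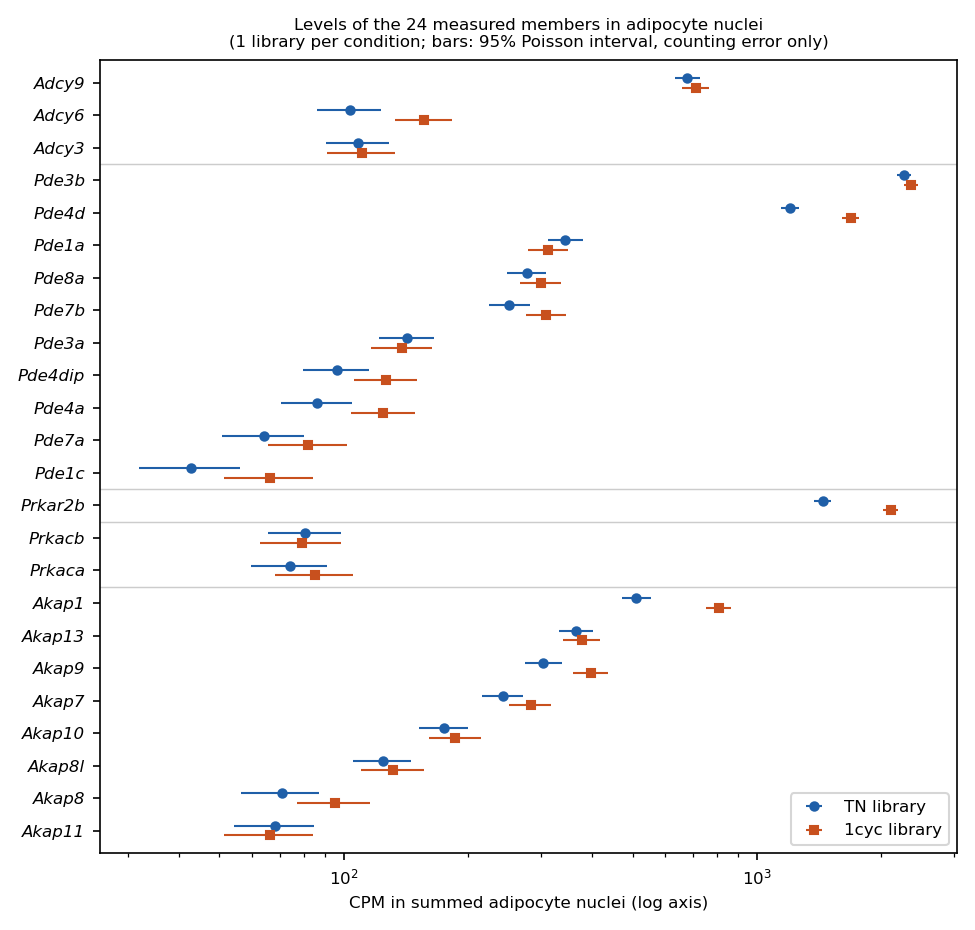
Level of each of the 24 members with at least 100 UMIs in summed adipocyte nuclei, in CPM on a log axis, for the TN library (circles) and the 1cyc library (squares), with 95% Poisson intervals. Pde3b, Prkar2b and Pde4d have the most CPM, not scaled to gene length, in both libraries. The intervals cover counting error only.

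Adcy9 gave most cyclase UMIs, with no scaling for gene length. Adcy9, a widely expressed membrane cyclase (chr16:4287529-4420498), stood at 679 CPM (633 to 727) in TN nuclei and 711 CPM (660 to 765) in 1cyc nuclei, which was 73.7% and 70.8% of all cyclase UMIs. Its ratio was 1.05 (0.947 to 1.16), and 0.962 (0.868 to 1.07) without the barcodes dominated by another list, so the libraries did not differ beyond counting error. Adcy6, a cyclase inhibited by calcium (chr15:98589973-98610076), stood at 104 CPM (86.4 to 123) in TN nuclei and 156 CPM (133 to 183) in 1cyc nuclei, a ratio of 1.51 (1.19 to 1.92). Without those barcodes its ratio was 1.47 (1.15 to 1.89). Adcy3, the other measured cyclase, was at 109 and 111 CPM, a ratio of 1.02 (0.787 to 1.32), or 0.975 (0.749 to 1.27) without those barcodes.

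Per length of gene the cyclases ranked differently. Long genes can give more molecules in nuclear RNA, so shares of UMIs need not rank genes by level. CPM per 100 kb of annotated gene are therefore given beside them as another scale. Whether intronic reads were counted is not stated, and whether this scale ranks genes by level was not tested. On that scale Adcy6, a short gene, was at 516 in TN and 778 in 1cyc, Adcy9 at 511 and 535, and Adcy3 at 135 and 138. Adcy6 and Adcy9 were thus level in TN, while Adcy6 was the higher of the pair in 1cyc. All 10 cyclases together were at 921 and 1004 CPM, a ratio of 1.09 (1.00 to 1.19), or 1.01 (0.926 to 1.10) without those barcodes. The sum was 0.970, 0.976 and 0.959 with no mitochondrial limit, after thinning to 500 UMIs per nucleus and without both those barcodes and nuclei with at least 2 UMIs of the white adipocyte genes Nnat, Slc7a10 and Lep, so its direction depended on the nuclei and depth used. The other 7 each had under 100 UMIs in adipocyte nuclei.

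Pde3b and Pde4d gave most UMIs of the phosphodiesterase-symbol genes, with no scaling for gene length. Pde3b, the phosphodiesterase through which insulin restrains lipolysis (chr7:114415281-114539251), stood at 2270 CPM (2186 to 2356) in TN nuclei and 2356 CPM (2263 to 2453) in 1cyc nuclei, or 46.1% and 42.0% of the UMIs of this group. Its ratio was 1.04 (0.982 to 1.10), and 0.939 (0.888 to 0.992) without the barcodes dominated by another list, so its direction depended on them. Pde4d, a cyclic AMP-specific phosphodiesterase (chr13:108449948-109953461), stood at 1202 CPM (1141 to 1266) in TN nuclei and 1688 CPM (1609 to 1770) in 1cyc nuclei. That is a ratio of 1.40 (1.31 to 1.51), or 1.30 (1.21 to 1.40) without those barcodes. Its share of the group was 24.4% in TN and 30.1% in 1cyc. Pde4a, of the same subfamily, was at 86.4 and 125 CPM, a ratio of 1.44 (1.11 to 1.89), or 1.37 (1.05 to 1.81) without those barcodes.

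Among the phosphodiesterases that calcium and calmodulin activate, the 2 measured members pointed in opposite directions. Pde1c was at 42.8 CPM (32.0 to 56.1) in TN nuclei and 66.4 CPM (51.4 to 84.3) in 1cyc nuclei, a ratio of 1.55 (1.06 to 2.27) that rests on 52 and 67 UMIs. Without the barcodes dominated by another list its ratio was 1.5 (0.999 to 2.26), an interval that reaches 1. Pde1a was at 344 and 313 CPM, a ratio of 0.910 (0.784 to 1.06), or 0.829 (0.713 to 0.964) without those barcodes. It was the only one of the 24 whose ratio was under 1 in these values and in each of the 16 alternatives. Of the cyclic AMP-specific PDE7 and PDE8 enzymes, Pde7b had a ratio of 1.23 (1.04 to 1.44), Pde7a 1.28 (0.929 to 1.77) and Pde8a 1.08 (0.924 to 1.27). Without those barcodes the ratio of Pde7b was 1.14 (0.964 to 1.34), that of Pde7a 1.14 (0.816 to 1.59) and that of Pde8a 1.03 (0.878 to 1.21). Pde3a, known from heart and smooth muscle, was at 142 and 139 CPM, a ratio of 0.974 (0.774 to 1.22), or 0.939 (0.735 to 1.2) without those barcodes. Pde4dip carries the symbol but encodes myomegalin, a scaffold of the Golgi and centrosome and not an enzyme. It was at 96.3 and 127 CPM, a ratio of 1.32 (1.02 to 1.71), or 1.25 (0.941 to 1.65) without those barcodes.

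All 26 genes of the group summed to 4925 CPM in TN nuclei and 5615 CPM in 1cyc nuclei, a ratio of 1.14 (1.10 to 1.18), or 1.05 (1.01 to 1.09) without the barcodes dominated by another list. Per 100 kb of gene, Pde3b was at 1831 in TN and 1901 in 1cyc. Pde4d, which spans 1504 kb, was at 80.0 and 112, and Pde4a, which spans 47.5 kb, was at 182 and 263. On that scale Pde3b was the highest of the 10 measured phosphodiesterase-symbol genes in both libraries, and Pde4d lay below Pde8a (229 and 248) and Pde4a in both.

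Prkar2b gave nearly all regulatory-subunit UMIs of adipocyte nuclei, with no scaling for gene length. Prkar2b encodes RIIβ, the regulatory subunit best known from adipose tissue (chr12:31958476-32061296). It stood at 1443 CPM (1377 to 1513) in TN nuclei and 2107 CPM (2018 to 2198) in 1cyc nuclei, a ratio of 1.46 (1.37 to 1.56). Without the barcodes dominated by another list the levels were 1659 and 2189 CPM and the ratio 1.32 (1.24 to 1.41). Its share of regulatory-subunit UMIs was 94.5% (93.4 to 95.5) in TN and 96.3% (95.5 to 97.1) in 1cyc. The other 3 had few UMIs. Prkar2a had 51 UMIs in TN and 41 in 1cyc, Prkar1a had 43 and 33, and Prkar1b fewer still. Per 100 kb of gene, Prkar1a was at 175 in TN and 161 in 1cyc and Prkar2a at 68.7 and 66.4, against 1404 and 2049 for Prkar2b. Prkar2a, with 92 UMIs over both sums, lay just under the minimum of 100 and Pde1c, with 119, just over it.

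Both catalytic subunits were measured at low levels. Prkaca, the main catalytic subunit in many tissues, was at 74.1 CPM (59.6 to 91.0) in TN nuclei and 85.2 CPM (68.1 to 105) in 1cyc nuclei, a ratio of 1.15 (0.846 to 1.56). Prkacb was at 80.6 and 79.2 CPM, a ratio of 0.983 (0.722 to 1.33). With the barcodes dominated by another list left out these ratios were 1.08 (0.790 to 1.48) and 0.992 (0.721 to 1.36). Neither differed between the libraries beyond counting error. Per 100 kb of gene, Prkar2b was at 1404 and 2049 against 316 and 363 for Prkaca and 96.7 and 95 for Prkacb. Summed regulatory subunits had a ratio of 1.43 (1.35 to 1.52) and summed catalytic subunits 1.06 (0.857 to 1.32), or 1.30 (1.22 to 1.38) and 1.04 (0.831 to 1.29) without those barcodes.

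Akap1 was the anchor with most UMIs and, with all gated barcodes, the member with the highest ratio. Pde1c and Adcy6 had higher ratios than Akap1 without the barcodes dominated by another list. Akap1 places PKA at the outer mitochondrial membrane (chr11:88830792-88864586). It stood at 511 CPM (472 to 553) in TN nuclei and 807 CPM (753 to 865) in 1cyc nuclei, a ratio of 1.58 (1.42 to 1.76). Without the barcodes dominated by another list the levels were 592 and 841 CPM and the ratio 1.42 (1.28 to 1.58). Its share of anchor UMIs was 26.7% (24.9 to 28.5) in TN and 33.8% (31.9 to 35.7) in 1cyc. Per 100 kb of gene, it was at 1512 in TN and 2389 in 1cyc, the highest of the 8 measured anchors in both libraries, ahead of Akap8l (426 and 451) and Akap8 (403 and 541).

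With all gated barcodes the other anchors with at least 100 UMIs had lower ratios than Akap1, which was not tested. Akap9, a scaffold of the Golgi and centrosome, was at 304 and 396 CPM, a ratio of 1.30 (1.13 to 1.5), or 1.22 (1.05 to 1.41) without the barcodes dominated by another list. Akap8, a nuclear anchor, was at 70.8 and 95.1 CPM, a ratio of 1.34 (0.994 to 1.82), or 1.41 (1.03 to 1.94) without those barcodes, close to the 1.42 of Akap1. Akap7, a small membrane-bound anchor, had a ratio of 1.17 (0.988 to 1.38), or 1.09 (0.922 to 1.29) without them. Akap13 had a ratio of 1.03, Akap10 1.07, Akap8l 1.06 and Akap11 0.972, and each of their intervals spanned 1. Without those barcodes they were 1.02, 0.962, 0.988 and 0.965, so Akap10 and Akap8l turned direction. All 16 anchors summed to 1915 and 2388 CPM, a ratio of 1.25 (1.18 to 1.32), or 1.18 (1.11 to 1.25) without those barcodes.

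**Figure D2:**
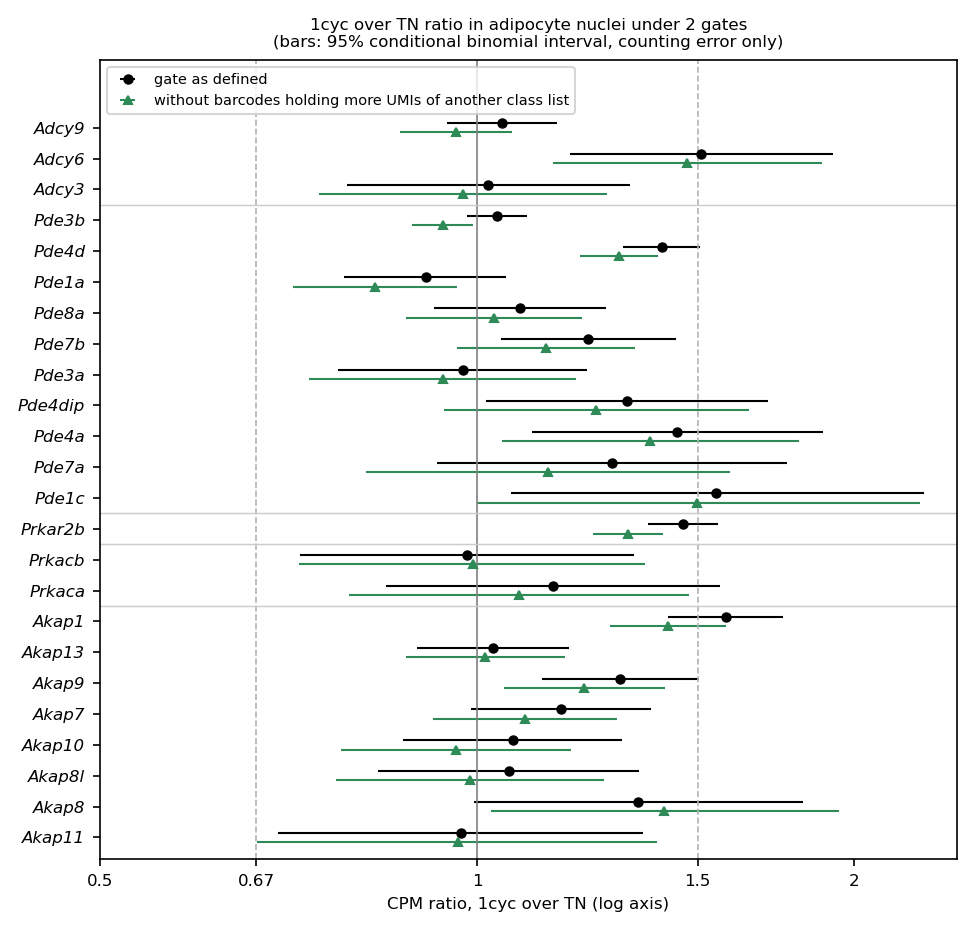
CPM ratio of the 1cyc over the TN library for the 24 members in adipocyte nuclei, on a log axis, with all gated barcodes (circles) and without the barcodes that held more UMIs of another class list (triangles), with 95% conditional binomial intervals. Dashed lines mark 1.5-fold in either direction, and 3 circles but 0 triangles lie past the right-hand line.

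An antisense gene overlaps 8 of the 24 measured members in GENCODE M21: Akap1, Akap7, Akap9, Pde3a, Pde4dip, Pde7a, Adcy3 and Adcy6. Whether counting used strand is not given in the sources used here, so their UMIs are uncertain to that extent. None of the 24 overlaps another gene on its own strand. Akap2 had 0 UMIs in all barcodes, and it overlaps Pakap, which had 174 UMIs, on the same strand. Pde2a, with 1 UMI in all barcodes, overlaps Gm45837, which had 11 UMIs, on the same strand.

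Shares of nuclei with a UMI were compared at equal depth. After each nucleus was thinned to 500 UMIs, Prkar2b was seen in 50% (47.0 to 53.0) of 1094 TN nuclei and 65.3% (61.9 to 68.6) of 801 1cyc nuclei, and 134 shallower 1cyc nuclei were left out. Akap1 was seen in 24.7% (22.2 to 27.3) and 33.7% (30.4 to 37.1), Pde4d in 45.8% (42.8 to 48.8) and 55.6% (52.0 to 59.0), and Adcy6 in 5.85% (4.53 to 7.41) and 8.74% (6.88 to 10.9). Pde3b was seen in 65.0% (62.1 to 67.8) and 63.0% (59.6 to 66.4), and Adcy9 in 30.3% (27.5 to 33.1) and 28.7% (25.6 to 32.0). Unthinned, with medians of 876.5 and 956 UMIs per nucleus, the shares were 71.4% and 79.5% for Prkar2b, 38.9% and 53.2% for Akap1 and 82.4% and 77.1% for Pde3b. In TN endothelial barcodes, where free RNA can give UMIs, thinned shares were 4.00% for Prkar2b, 10.0% for Pde3b and 0% (0 to 7.11) for Akap1 over 50 barcodes with a median of 1598 UMIs. In 1cyc endothelial barcodes they were 35.3% (14.2 to 61.7), 17.6% (3.80 to 43.4) and 0% (0 to 19.5) over 17 barcodes, from a class with a median of 715.5 UMIs.

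The members were then compared between adipocyte nuclei and other barcodes of the same libraries. A barcode was placed in another class when it was under the mitochondrial limit and held at least 3 UMIs of that class's marker list, more than of any other list and of the gate genes. This gave 72 endothelial, 173 fibroblast, 42 muscle and 31 mural barcodes over both libraries, and of the first 3 classes 40, 33 and 10 also met the adipocyte gate and stayed in both. Classes were compared with the libraries pooled, because the small classes held only 101115, 225356 and 50618 UMIs. Cells of 1 library are not replicates, so the ratios are descriptions.

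Against endothelial barcodes, 14 of 24 members were at least 2-fold higher in adipocyte nuclei (30.9% of 3899 genes) and 0 were lower (12.7% of genes). The adipocyte sum was far larger than the sums of the other classes, so the minimum of 100 UMIs was passed mainly through it and left out members that are low there. With a minimum of 50 UMIs, 3 of 30 were lower than in endothelial barcodes (16.9% of 6010 genes), Akap12, Pde10a and Prkar1a. At that minimum 7 of 30 were lower than in fibroblast (12.9% of 6177 genes) and 6 of 31 lower than in muscle barcodes (15.7% of 5846). Of the 6, Pde4b had 38 UMIs in adipocyte nuclei and reached that minimum only with 16 in muscle barcodes. The count of 0 against endothelial barcodes is therefore not a result about the members. Against fibroblast barcodes, 10 of 25 were higher (25.9% of 4055 genes) and 5 lower (10.6%). Of the 5, Pde11a had 51 UMIs in adipocyte nuclei and 78 in fibroblast barcodes. It reached the minimum only with the latter, so it could only be counted as lower. Against muscle barcodes, 11 of 24 were higher (31.7% of 3764 genes) and 3 lower (7.23%). With barcodes that met both rules left out on both sides, together with gated barcodes dominated by any other list, the higher members were 10, 12 and 9 of 24 each (28.9%, 29.7% and 29.9% of 3499, 3699 and 3485 genes).

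Prkar2b, Akap1 and Pde3b were among the members at least 2-fold higher in adipocyte nuclei in all 3 comparisons of the pooled libraries. They were picked for their size after the values were seen, and the share of all genes as high in all 3 was not computed. Prkar2b was 8.82-fold (5.70 to 14.5) above endothelial, 10.6-fold (7.69 to 15.1) above fibroblast and 11-fold (5.6 to 25.6) above muscle barcodes. Akap1 was 13.1-fold (5.58 to 40.3), 9.09-fold (5.58 to 15.9) and 16.3-fold (4.51 to 135) above them, the first and last resting on 5 and 2 UMIs. Pde3b was 8.34-fold (5.76 to 12.6), 7.03-fold (5.59 to 8.97) and 5.31-fold (3.50 to 8.48) above them. In 1cyc alone Prkar2b was 4.29-fold (2.33 to 8.97), 9.56-fold (5.87 to 16.8) and 6.60-fold (2.82 to 20.3) above the 3 classes. Akap1 was there 5.49-fold (1.87 to 26.7), 9.77-fold (4.47 to 26.7) and 12.6-fold above them, over 3, 6 and 1 UMIs, the last a fold whose interval starts at 2.26. Pde3b was 6.00-fold (3.04 to 13.9), 7.44-fold (4.95 to 11.8) and 3.36-fold (1.87 to 6.73) above them. Prkar2b was 66.7% of regulatory-subunit UMIs in endothelial, 67.3% in fibroblast and 50% in muscle barcodes, over 30, 55 and 16 UMIs. Akap1 was 30.3% of anchor UMIs in adipocyte nuclei and 3.23%, 3.70% and 1.79% in the other 3. In TN, Prkar2b stood in those 3 classes at 8.58%, 9.53% and 5.95% of its adipocyte level, while the 12-gene adipocyte list stood at 15.4%, 43.7% and 24%. In 1cyc Prkar2b stood at 23.3%, 10.5% and 15.2% and the list at 17%, 31.6% and 21.6%, so in endothelial barcodes Prkar2b lay below the list in TN and above it in 1cyc. What part of the level in these classes comes from adipocyte RNA was not tested.

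**Figure D3:**
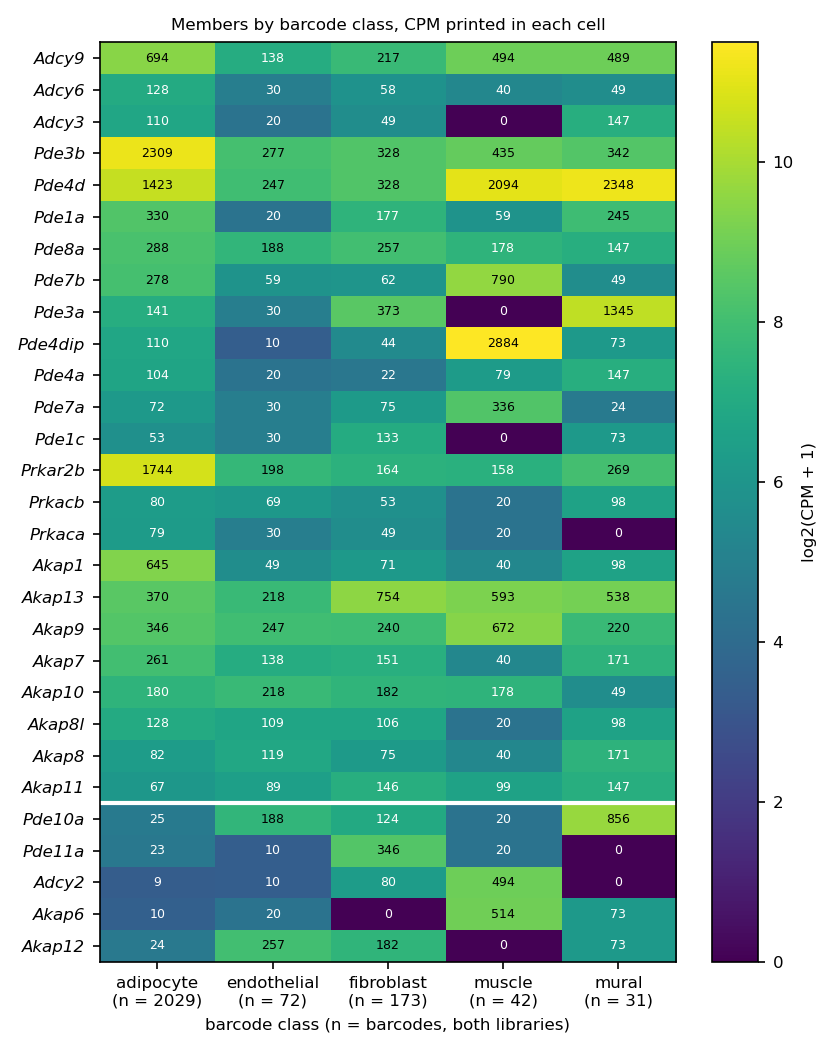
Pooled CPM of the 24 measured members and, under the white line, 5 members scarce in adipocyte nuclei, in 5 barcode classes, where color gives log2(CPM + 1) and each cell prints the CPM. Pde3b and Prkar2b are highest in the adipocyte column, Pde4dip in the muscle column and Pde10a in the mural column.

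Muscle barcodes held another set of phosphodiesterase symbols. Pde4dip stood at 3033 CPM in the TN and 2554 CPM in the 1cyc muscle barcodes, 26.2-fold (21.2 to 32.3) above adipocyte nuclei, and was 39.5% of the phosphodiesterase-symbol UMIs there against 2.10% in adipocyte nuclei. Pde7a was at 315 and 383 CPM in muscle, 4.64-fold (2.64 to 7.67) above adipocyte nuclei. Pde7b was at 973 and 383 CPM, 2.84-fold (2.01 to 3.92) above. That fold rests on TN, where it was 3.86 (2.63 to 5.52), and in 1cyc it was 1.24 (0.451 to 2.73) over 6 UMIs. Pde4d, with the libraries pooled, was at 2094 CPM in muscle and 2348 CPM in mural barcodes against 1423 CPM in adipocyte nuclei. That excess rests on TN, where it was at 2232 CPM in muscle and 2560 CPM in mural barcodes against 1202 CPM. In 1cyc it was at 1788 and 1661 CPM against 1688 CPM, a ratio of muscle over adipocyte nuclei of 1.06 (0.702 to 1.54). Adcy9 was at 494 CPM in muscle, where the ratio of adipocyte nuclei over muscle was 1.40 (0.948 to 2.18), with 1.13 (0.734 to 1.84) in TN and 2.78 (1.08 to 10.2) in 1cyc.

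In fibroblast barcodes, 5 members were at least 2-fold above adipocyte nuclei. Pde11a, which hydrolyses both cyclic AMP and cyclic GMP, was at 380 CPM in the TN and 275 CPM in the 1cyc fibroblast barcodes. It was 15.1-fold (10.5 to 21.9) above adipocyte nuclei, and it reached the minimum for a ratio only through its UMIs in fibroblast barcodes. Pde3a was 2.65-fold (2.06 to 3.38) above, Pde1c 2.49-fold (1.61 to 3.74), Akap11, an anchor also called AKAP220, 2.17-fold (1.44 to 3.18) and Akap13 2.04-fold (1.72 to 2.41). Pde3a was higher still in mural barcodes, at 1408 and 1142 CPM, 9.56-fold (7.04 to 12.8) above adipocyte nuclei. Pde3a had 0 UMIs in muscle barcodes, where 3 counts, taken as the most that a count of 0 allows, are 85.8 CPM in the TN and 192 CPM in the 1cyc muscle barcodes.

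Of the 34 members under 100 UMIs in adipocyte nuclei, which together gave 647 of 22943 UMIs, 5 had at least 20 UMIs in another class. Besides Pde11a these were Pde10a, Akap12, Adcy2 and Akap6. Pde10a, another dual phosphodiesterase, was at 768 CPM in the TN and 1142 CPM in the 1cyc mural barcodes. Akap12, also called gravin, was at 248 and 294 CPM in endothelial and 183 and 179 CPM in fibroblast barcodes. Adcy2 and Akap6 were highest in muscle barcodes, Adcy2 at 429 and 638 CPM and Akap6, the anchor of the muscle nuclear envelope, at 515 and 511 CPM. Adcy2 was 45.5% of cyclase UMIs in muscle. In adipocyte nuclei Pde10a had 41 UMIs in TN and 15 in 1cyc, Akap12 44 and 10, and Pde11a 37 and 14. Without the barcodes dominated by another list these became 11 and 6, 23 and 6, and 22 and 11.

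The remaining 29 members gave 442 UMIs in adipocyte nuclei. Of them, Akap2, Akap3, Akap4 and Pde2a had 0 UMIs there, and the first 3 had 0 in all barcodes. Taking 3 counts as the most that a count of 0 allows, the limit at these sums is 2.47 CPM for TN and 2.97 CPM for 1cyc. For Akap2 and Pde2a it covers only the UMIs assigned to them, since each overlaps another gene on its own strand.

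Within each library, adipocyte nuclei were divided by Nnat, Slc7a10 and Lep, genes known from white adipocytes. Nuclei with at least 2 UMIs of these genes were 99 of 1094 in TN (9.05%) and 27 of 935 in 1cyc (2.89%), with median UMIs of 1450 against 855 for the other TN nuclei and 1501 against 945 for the other 1cyc nuclei. Of 18 members with enough UMIs, 2 were at least 1.5-fold higher in the white-marker nuclei in TN (15.7% of 2210 genes) and 6 lower (22.1%). In 1cyc 2 were higher (18.2% of 2000 genes) and 10 lower (33%). After thinning to 500 UMIs the counts were 1 higher and 5 lower of 12 members in TN (14.4% and 27.9% of 926 genes) and 0 and 7 of 11 in 1cyc (18.5% and 38.8% of 650 genes).

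The lower members included cyclases, phosphodiesterases and Akap1. Akap1 stood at 200 CPM in the TN white-marker nuclei against 558 CPM in the other nuclei, a ratio of 0.358 (0.243 to 0.511), and at 222 against 835 CPM in 1cyc, a ratio of 0.266 (0.127 to 0.492). Adcy9 had ratios of 0.461 (0.343 to 0.608) in TN and 0.241 (0.104 to 0.478) in 1cyc. Pde8a had 0.243 (0.124 to 0.431) and 0.287 (0.0776 to 0.741), and Pde3a 0.196 (0.0629 to 0.467) in TN. Adcy3 had a ratio of 0.314 (0.113 to 0.702) in TN and 0 UMIs in the 1cyc white-marker nuclei. Prkar2b stood at 1018 against 1508 CPM in TN nuclei, a ratio of 0.675 (0.571 to 0.793), and at 1177 against 2150 CPM in 1cyc, a ratio of 0.547 (0.409 to 0.719). Pde3b went the other way in TN, with 3035 against 2153 CPM, a ratio of 1.41 (1.28 to 1.56), and in 1cyc its ratio was 1.17 (0.966 to 1.40). The members counted as higher were Akap8l and Akap7 in TN and Akap8l and Pde1a in 1cyc. Akap8l had ratios of 1.84 (1.21 to 2.73) in TN and 1.93 (0.939 to 3.58) in 1cyc. Akap7 had 1.65 (1.22 to 2.20) and 1.10 (0.595 to 1.88), and Pde1a 1.33 (1.01 to 1.72) and 1.60 (0.989 to 2.47).

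**Figure D4:**
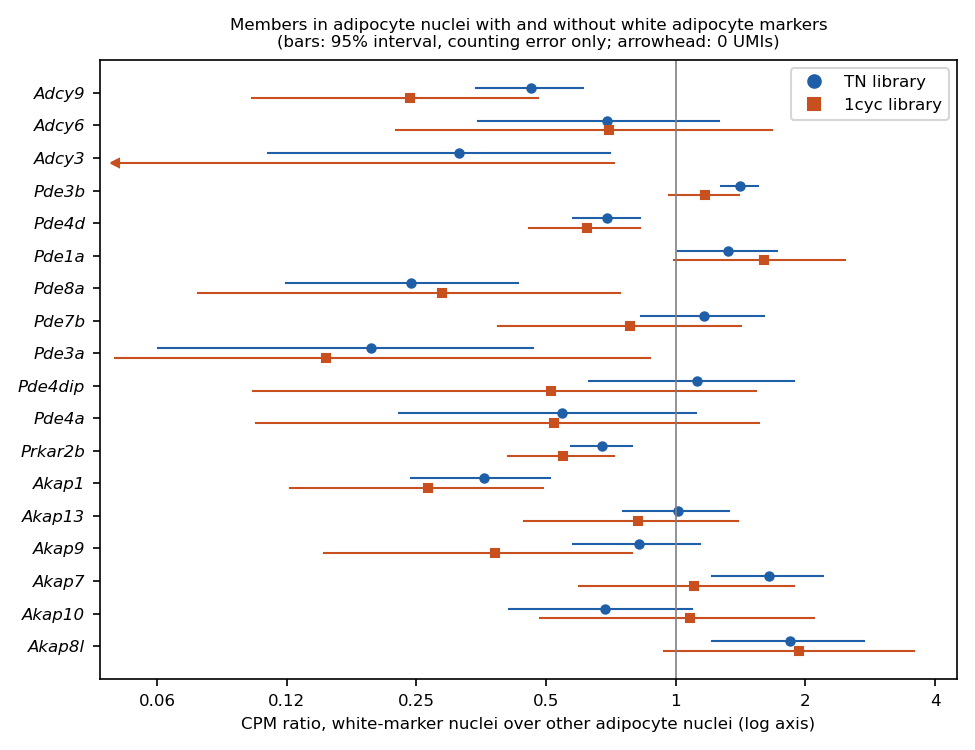
CPM ratio of white-marker over other adipocyte nuclei for 18 members in the TN library (circles) and the 1cyc library (squares), on a log axis, with 95% intervals that are cut where they pass below 0.05. Adcy9, Adcy3 (0 UMIs in 1cyc, drawn as an arrowhead), Pde8a, Pde3a and Akap1 lie under 0.5 in both libraries. Pde3b, Pde1a, Akap7 and Akap8l lie above 1 in both.

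With the white-marker nuclei left out, the ratio of 1cyc over TN was 1.43 (1.34 to 1.52) for Prkar2b, 1.49 (1.34 to 1.67) for Akap1, 1.37 (1.27 to 1.47) for Pde4d and 1.47 (1.14 to 1.89) for Adcy6. Pde3b was at 2153 CPM in TN nuclei and 2339 CPM in 1cyc nuclei, a ratio of 1.09 (1.02 to 1.15). In the white-marker nuclei alone, Prkar2b was at 1018 and 1177 CPM, a ratio of 1.16 (0.831 to 1.59), and Akap1 at 200 and 222 CPM, a ratio of 1.11 (0.487 to 2.32). Whether the ratios of the 2 kinds of nuclei differ was not tested.

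Adipocyte nuclei were also divided by Ucp1, the uncoupling protein that produces heat. Nuclei with a Ucp1 UMI were 107 in TN (9.78%) and 178 in 1cyc (19.0%). In TN, Pde4d and Pde4dip were at least 1.5-fold higher in them (2 of 18 members, against 7.6% of genes) and Pde7b lower (1 of 18, against 11.4%). Pde4d stood at 1761 against 1148 CPM, a ratio of 1.53 (1.31 to 1.79), and Prkar2b at 1854 against 1404 CPM, a ratio of 1.32 (1.13 to 1.53). In 1cyc, 0 of 18 were higher (3.15% of genes) and Akap10 was lower (5.1%), with Pde4d at a ratio of 1.12 (1.00 to 1.25) and Prkar2b at 1.05 (0.951 to 1.17). Median UMIs were 884 in TN nuclei with Ucp1 and 875 in those without, and 1155 and 890 in 1cyc. In nuclei without a Ucp1 UMI, Prkar2b was at 1404 and 2082 CPM, a ratio of 1.48 (1.38 to 1.59) between the libraries, and in nuclei with one it was at 1854 and 2194 CPM, a ratio of 1.18 (1.00 to 1.40).

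Other genes of the pathway were read from 6 lists, of whose 93 genes 37 had at least 100 UMIs. Of these, 4 were at least 1.5-fold higher in 1cyc (8.33% of all genes measured) and 5 lower (5.44%). Among 12 receptors and G proteins 2 were higher and 2 lower. Adra1a, an alpha-adrenergic receptor, was at 322 and 556 CPM, a ratio of 1.73 (1.52 to 1.97), and Gnas, the stimulatory G protein subunit, at 1339 and 2220 CPM, a ratio of 1.66 (1.55 to 1.77). The thyrotropin receptor gene Tshr was at 188 and 70.3 CPM, a ratio of 0.375 (0.283 to 0.491), and Gnai1, an inhibitory G protein subunit, at 135 and 68.3 CPM, a ratio of 0.506 (0.377 to 0.675). Without the barcodes dominated by another list the ratios were 1.58 for Adra1a, 1.55 for Gnas, 0.341 for Tshr and 0.449 for Gnai1. Gnai3, another inhibitory subunit, went from 0.701 (0.476 to 1.02) to 0.605 (0.393 to 0.919), past 1.5-fold lower. Adrb3, the main adipocyte beta receptor, was at 90.5 and 88.2 CPM, a ratio of 0.974 (0.728 to 1.30), or 0.882 (0.659 to 1.18) without those barcodes.

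Further down the pathway, 4 of 17 listed transcripts known to respond to cyclic AMP had at least 100 UMIs. Of these 4, 2 were at least 1.5-fold higher in 1cyc, against 8.33% of all genes measured. Ucp1 was at 123 and 265 CPM, a ratio of 2.16 (1.77 to 2.66), and Cebpb, a transcription factor, at 38.7 and 73.3 CPM, a ratio of 1.90 (1.30 to 2.79). Pck1, which had most UMIs of that list, had a ratio of 1.11 (1.01 to 1.21). Ppargc1a, the remaining measured gene of the list, did not pass 1.5-fold. None of the 7 measured PKA substrates and lipolysis genes passed 1.5-fold, and Itpr1, the calcium channel with most UMIs there, had a ratio of 1.25 (1.14 to 1.37). Of 11 genes of the CREB family, its coactivators and the SIK kinases, 0 were higher and Creb5 was lower, at 65.8 and 25.8 CPM, a ratio of 0.391 (0.241 to 0.616). Sik2, a kinase that PKA inhibits, had most UMIs of them and a ratio of 0.974 (0.915 to 1.04). Rapgef2, the only other effector measured, had a ratio of 0.885 (0.768 to 1.02). Leaving out the barcodes dominated by another list gave ratios of 1.94 for Ucp1, 1.75 for Cebpb, 1.00 for Pck1, 1.17 for Itpr1, 0.887 for Sik2 and 0.844 for Rapgef2.

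Both measured genes of the cyclic GMP branch were lower in 1cyc. Npr3, the natriuretic peptide clearance receptor, was at 360 and 232 CPM, a ratio of 0.643 (0.546 to 0.755), and Prkg1, the cyclic GMP-dependent kinase, at 259 and 106 CPM, a ratio of 0.409 (0.325 to 0.511). Prkg1 was at 11397 CPM in mural and 1211 CPM in fibroblast barcodes, and Creb5 at 932 CPM in fibroblast barcodes. Without the barcodes dominated by another list Npr3 had a ratio of 0.588 (0.499 to 0.692), Prkg1 had 89 and 31 UMIs and a ratio of 0.376 (0.241 to 0.572), and Creb5 41 and 15 UMIs and a ratio of 0.395 (0.203 to 0.729).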

How the data were processed

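Single-nucleus libraries of brown adipose tissue were made on the 10X Genomics platform from DAPI-sorted nuclei, per the labels' protocols. The deposited tables hold unnormalized UMI counts for each gene in each barcode. Per the submitters' processing notes the authors used Cell Ranger 3 and the mm10 build, and the file headers name release 3.1.0. Annotation, strand and intron counting were not stated. The smallest deposited barcode had 500 (TN) and 262 (1cyc) UMIs.

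From these counts, UMIs were summed over the barcodes of a class and scaled to CPM (1e6 UMIs). Ratios were computed for genes that reached 100 UMIs in the 2 sums together, and a group with 0 UMIs was set to a floor of 3 counts over its sum. CPM have exact Poisson, ratios exact conditional binomial and shares Clopper-Pearson intervals, all at 95%. Only the ratio intervals were tried on simulated counts. Those counts were drawn from the Poisson model that the intervals assume, so spread between nuclei or mice was not tested. Members apart were counted at 1.5-fold between libraries or parts of a library and 2-fold between classes, by size alone. Named were all members with at least 100 UMIs, other members with at least 20 UMIs in another class, and pathway genes past 1.5-fold or with most UMIs of their list. Adrb3 was added after its values were seen. Markers for 6 other classes (endothelial, fibroblast, muscle, mural, immune, erythroid) were 5 to 12 genes each. The members and lists were chosen with earlier results of these data known. No doublets were removed, and Scrublet in scanpy 1.11.5 called 11 TN and 8 1cyc barcodes, used as an alternative. TMM factors came from edgeR 4.0.16. Gene positions are from GENCODE M21, which held 30934 of the 31053 identifiers, and promoters from RefSeq on GRCm38.p6.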

Additional observations from a re-analysis of the deposited data

Results flagged for a closer look

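Barcodes at or over the mitochondrial limit of 5% were not used in the comparisons, yet 872 TN and 1928 1cyc barcodes there met the adipocyte gate and carried transcripts of all 5 groups. In the 1cyc barcodes, whose median mitochondrial share was 27.2%, cyclases were at 733 CPM, phosphodiesterase-symbol genes at 3850 CPM, PKA regulatory subunits at 1266 CPM, catalytic subunits at 118 CPM and anchors at 1583 CPM. In the TN barcodes, whose median mitochondrial share was 7.84%, they were at 890, 4189, 1285, 154 and 1795 CPM.

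With levels scaled to UMIs that are not mitochondrially encoded, the ratio of 1cyc over TN in these barcodes was 1.32 (1.15 to 1.52) for Akap1, 1.17 (1.07 to 1.29) for Prkar2b and 1.18 (1.08 to 1.30) for Pde4d. It was 1.86 (1.34 to 2.62) for Adcy6, 1.91 (1.27 to 2.92) for Pde1c, 1.75 (1.2 to 2.56) for Pde4a and 1.71 (1.2 to 2.45) for Pde4dip. Pde3a had a ratio of 1.68 (1.22 to 2.32) here and Akap10 0.688 (0.531 to 0.890), where their ratios under the limit were 0.974 and 1.07. Akap9 had a ratio of 0.855 (0.688 to 1.06) and Pde7a 0.791 (0.495 to 1.25), where under the limit they were 1.30 and 1.28.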

How the results depend on the processing

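No paired analysis was possible because each condition is 1 library. Of 208 values of counts, medians and sums under alternatives, 165 stayed within set limits. These were 1.5 times for counts and the counting interval for sums. For medians they were the medians of the single-member interval ends, which are not the counting error of a median. Of 416 values of single members and of all genes, 372 moved by less than the limits set for them. The 3 members at least 1.5-fold higher in 1cyc became 0 with TMM, with median ratio scaling, without barcodes dominated by another list, after thinning to 500 UMIs and without those barcodes and white-marker nuclei together, and 1 without white-marker nuclei, which was Pde7a at 1.51 and none of the 3. The 0 lower members became 2 with no mitochondrial limit, which moved the all-gene median log2 ratio from 0.08 to -0.07, and 3 with a minimum of 50 UMIs. Summed cyclases reversed to 0.970 with no mitochondrial limit, 0.976 after thinning and 0.959 without both kinds of nuclei. Summed phosphodiesterase-symbol genes were 1.07 with TMM, 1.08 with median ratio scaling, 1.04 with no mitochondrial limit and 1.2 with a gate of 2 UMIs. They were 1.09 after thinning, 1.05 without barcodes dominated by another list and 1.05 without both kinds. Regulatory subunits were 1.34 with TMM, 1.23 with no limit, 1.54 with the gate of 2 UMIs, 1.30 without barcodes dominated by another list and 1.24 without both kinds. Catalytic subunits were 0.834 after thinning, and anchors 1.17 with TMM, 1.08 with no limit and 1.17 without both kinds. Pathway genes higher were 8 with the gate of 2 UMIs and 2 without both kinds, and those lower 3 without white-marker nuclei, 2 after thinning and 3 without both kinds. With a minimum of 50 UMIs, 3 members were lower than in endothelial and 6 lower than in muscle barcodes. In TN alone 3 were lower than in fibroblast and 5 higher than in muscle barcodes, and in 1cyc alone 1 was lower than in fibroblast, 7 higher and 1 lower than in muscle barcodes. Members higher in TN white-marker nuclei were 1 with a rule of 3 UMIs, 1 after thinning and 1 without barcodes dominated by another list, and in 1cyc 0 after thinning. A count given without its share of all genes is not read as a result about members or pathway genes. The causes were not tested. The alternatives that combine both kinds of nuclei, leave out haemoglobin UMIs or barcodes of 2 classes, or split nuclei without barcodes dominated by another list were chosen after seeing the data.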
